A study of Rattus with 4 samples.

Results

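The matrix proteases and their inhibitors described here are the metalloproteinases of the MMP, ADAM and ADAMTS families, the ADAMTS-like proteins and the TIMPs. Members were the protein-coding genes whose symbol consists of Mmp, Timp, Adam, Adamts or Adamtsl, a number and at most a single letter. By this rule 47 of the 13731 listed genes were members: 11 Mmp, 12 Adam, 16 Adamts, 5 Adamtsl and 3 Timp genes. The RefSeq gene table of the rat assembly GRCr8 holds 80 protein-coding symbols of this form. All 47 members are among them, and the others were not analysed here.

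The data are RNA immunoprecipitation sequencing (RIP-seq) of cultured rat heart cells. The 2 NONO IP libraries hold RNA recovered with an anti-NONO antibody, and the 2 Input libraries hold RNA without antibody. NONO is a nuclear protein that binds RNA and DNA. The cell type label gives siRNA against NONO for the NONO IP libraries and an empty vector for the inputs, so precipitation and knockdown cannot be told apart by these labels. In the titles the cells are H9C2, a rat heart myoblast line, whereas the growth protocol names a commercial line of rat cardiac fibroblasts. No library with a control antibody is among the 4, and nothing in the labels says that replicates were separate cultures. The p-values below therefore measure the spread between these libraries, which may be technical.

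Gene counts summed to between 238776 and 279410 per library, and 3 reads came to 10.2 to 15.9 CPM depending on the library. CPM are counts scaled by the summed counts of the tested genes and a TMM factor, which sets libraries level on the bulk of their genes. Nono itself had 3 and 3 reads in the NONO IP libraries and 21 and 9 in the inputs. Fibroblast markers, mostly Col1a1, Col1a2 and Col3a1, summed to 69104 and 69200 CPM in the NONO IP and 100391 and 98814 CPM in the inputs. Single ones differed: Dcn had 0 and 0 reads in the NONO IP and 2 and 2 in the inputs, and Postn 11 and 11 against 73 and 60. Pdgfra went the other way, with 31 and 31 reads in the NONO IP against 9 and 11 in the inputs. Smooth muscle and pericyte markers summed to 1940 and 1979 CPM in the NONO IP and 4739 and 4614 CPM in the inputs. Cardiomyocyte markers summed to 281 and 297 against 283 and 376 CPM. In the NONO IP these were mostly Tnnt2, with 64 and 59 reads against 16 and 39 in the inputs. Myh7 went the other way, with 2 and 2 reads against 10 and 10. Of 10 skeletal myoblast markers 2 were listed, with 7 NONO IP reads and 21 input reads, and Myod1 and Myog were not found by symbol. Macrophage and neutrophil markers, of interest because leukocytes are rich in several MMPs, summed to 6 NONO IP reads and 28 input reads, with Itgam and Csf3r at 0 in the inputs. The part of these marker differences in the results was not tested.

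Metalloproteinases carry a zinc ion in their active site and are made as inactive precursors that furin-like convertases or other proteases activate. MMPs degrade collagens, gelatin and other matrix proteins, ADAMs mostly cut the outer parts of membrane proteins from the cell surface, and ADAMTS enzymes trim procollagens and large proteoglycans. ADAMTS-like proteins have the binding modules of ADAMTS enzymes without the protease domain. TIMPs block the active site of these enzymes, and in the heart the balance between fibroblast proteases and TIMPs is known to set how fast the matrix turns over.

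Members made up 0.335% and 0.345% of gene counts in the NONO IP libraries and 0.399% and 0.417% in the inputs. They held 1846 NONO IP reads and 1991 input reads, and 19 of the 47 passed the count filter, which let through no gene with fewer than 23 reads. These 19 hold 90.2% of all member reads. Of the other 28, 14 had at least 10 reads and 14 had fewer, 8 of them a single read. Of the 19 tested members, 3 had fewer than 23 input reads and 1 had fewer than 23 NONO IP reads, namely Adamts14, Adamtsl5 and Timp1 in the inputs and Timp1 in the NONO IP.

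Of the 19 tested members, Adam33 was higher in the NONO IP libraries than in the inputs. A lower level was called for 9, with edgeR's quasi-likelihood test and a threshold of 0.05 on the adjusted p. The 9 were Mmp2, Adam12, Adamts1, Adamts2, Adamts5, Adamts12, Adamtsl2, Adamtsl3 and Timp1. That is 5.26% higher and 47.4% lower, beside 29.8% higher and 26.9% lower among all 2920 genes tested, and 27.3% and 27.7% among the 2777 protein-coding ones. In either direction 10 of 19 passed, beside 56.7% of all genes tested and 54.9% of the protein-coding ones. The median log2 fold change of the 19 was −0.85, against 0.02 over all genes tested. The NONO IP libraries both exceeded both inputs for 2 members and were both below them for 11, where 40.6% and 37.3% of all genes tested did so.

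Abundance moved with these changes in the series as a whole. The tested members had a median input level of 125 CPM, against 73.2 CPM over all genes tested. Across all 2920 genes the log2 fold change correlated with log2 input CPM at a Spearman rho of −0.65, and across the 19 members at −0.28; both measures hold the input counts. The part of input abundance in the members' changes was not tested. In these bulk libraries, less recovery with the antibody, fewer cells with a transcript and less of it per cell cannot be told apart.

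**Figure D1:**
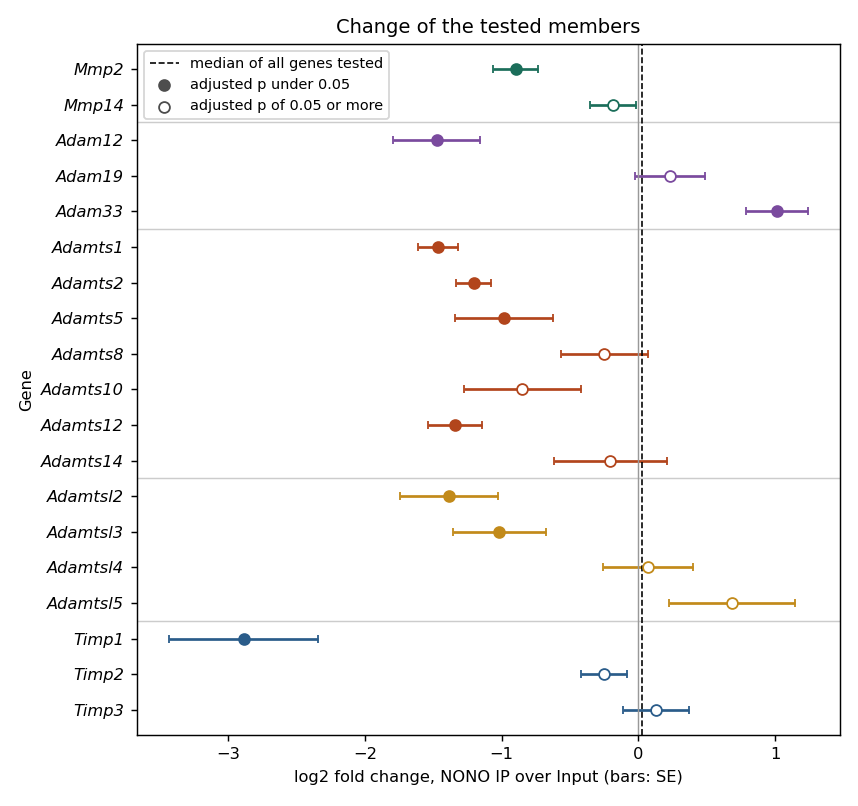
Log2 fold change of NONO IP over Input for the 19 tested members, with bars for the standard error and lines between families. Filled points passed an adjusted p of 0.05: Adam33 to the right, and 9 members to the left, of which Timp1 lies farthest out at −2.89. The dashed line is the median of all genes tested, 0.02.

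Per unit of length, 5 members stood above the rest in the inputs. On the deposited RPKM scale (reads divided by gene length and a library total) these were the gelatinase gene Mmp2 at 88.0, Adamts1 at 85.3, Mmp14 at 71.9, Adamts2 at 65.1 and Timp2 at 54.1 (means of 2 libraries). Mmp2 and Adamts1 overlapped in their libraries, with 92.1 and 83.9 against 89.2 and 81.3 RPKM, and were not in a clear order. Mmp14, at 69.5 and 74.3, lay above Adamts2 at 62.7 and 67.5, and Timp2 lay below both, at 52.0 and 56.1. Next came Timp1 at 30.1, Timp3 at 19.6 and Adamts12 at 19.3, the last pair overlapping. In all, 16 of 47 members reached a mean input level of 10 RPKM.

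In the NONO IP the order by length-scaled level was another one. Mmp14 came first, with 39.9 RPKM, then Mmp2 with 29.7, Timp2 with 28.8, Adamts1 with 19.5 and Adamts2 with 17.9. Mmp2, at 32.4 and 27.1, and Timp2, at 25.7 and 31.9, overlapped, as did Adamts1, at 18.6 and 20.5, and Adamts2, at 16.6 and 19.1. Timp1 ranked 20 of 47 in the NONO IP and 6 in the inputs, while Adam33 ranked 9 in the NONO IP and 21 in the inputs. Adam19 ranked 8 in the NONO IP and 16 in the inputs. Ranks within a group do not depend on how the libraries are scaled to each other, but they carry counting error. The Timp1 ranks rest on 2 and 2 reads in the NONO IP and 11 and 10 in the inputs, over the shortest length of the 47 members.

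**Figure D2:**
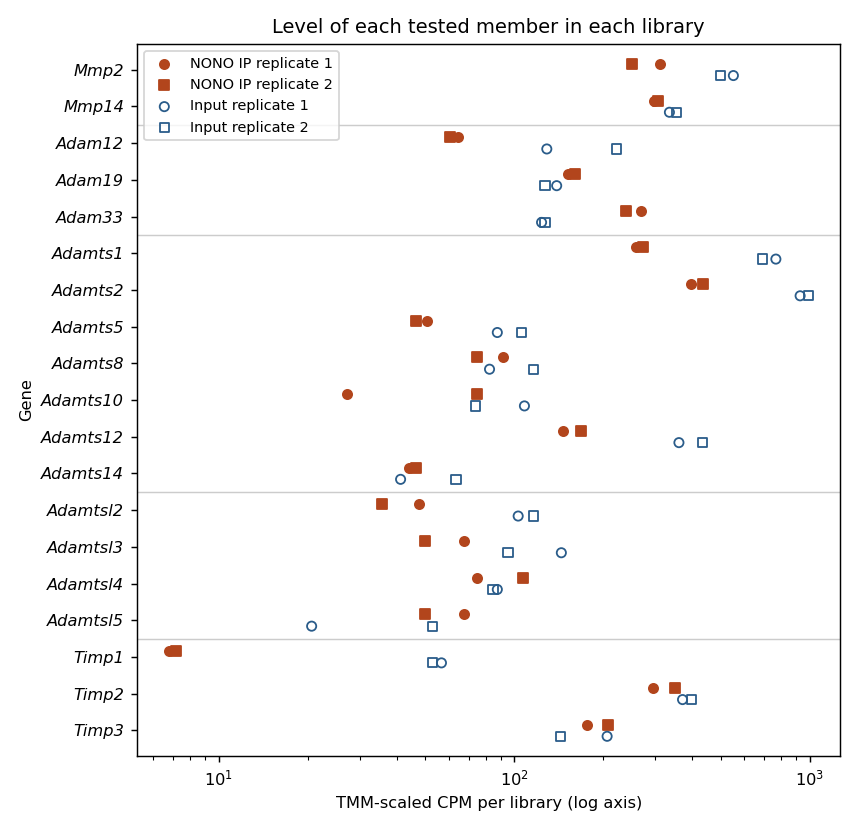
TMM-scaled CPM on a log axis for each tested member in each library, NONO IP as filled and Input as open symbols, with circles for replicate 1 and squares for replicate 2. Adam33 lies to the right of its inputs in both NONO IP libraries, Timp1 lies near 7 CPM in the NONO IP against over 50 CPM in the inputs, and Adamts10 and Adamtsl5 show the widest gaps between replicates.

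Among the MMPs, the secreted gelatinase transcript was lower and the transcript of its membrane-bound activator was not shown to change. Mmp2, on chromosome 19, cleaves denatured and basement membrane collagen. It had 92 and 70 reads in the NONO IP libraries and 107 and 94 in the inputs, or 281 ± 43.4 against 524 ± 38.0 CPM (SD, n = 2). Both NONO IP libraries lay below both inputs, and the change was significant (log2 fold change −0.90, SE 0.16, edgeR adjusted p = 0.000178). Mmp14, on chromosome 15, encodes the membrane-type MMP that activates proMMP2 together with TIMP2. It had 88 and 86 reads in the NONO IP and 65 and 67 in the inputs. On the scaled level that is 303 ± 6.55 against 345 ± 13.9 CPM, without overlap, and it did not pass (−0.19, SE 0.17, adjusted p = 0.355). The sign turned with library totals (0.27), with an offset for gene length (0.32) and with no count filter (0.0305). On the log2(RPKM + 1) scale, which understates changes of low genes, Mmp14 was lower, at −0.83 (limma adjusted p = 0.0277). There the median of all genes lay at −0.61 and 18.8% of genes were called lower. On the RPKM scales, all genes means the 7576 with at least 1 RPKM in at least 2 libraries.

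A ratio within a library is free of such scaling. Mmp14 made up 48.9% and 55.1% of the reads of Mmp14 and Mmp2 together in the NONO IP libraries, and 37.8% and 41.6% in the inputs. The exact binomial 95% intervals were 41.4% to 56.4% and 47.0% to 63.1% in the NONO IP, against 30.5% to 45.5% and 33.9% to 49.6% in the inputs. The interval of NONO IP replicate 2 lies above that of Input replicate 1, and the other NONO IP and Input intervals overlap. These and the other intervals below cover counting error only, since reads carry no molecular identifiers.

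Below the count filter, 3 MMP genes of at least 10 reads had counting intervals that leave out equality. Mmp16, a transmembrane MMP, had 9 and 14 reads in the NONO IP and 1 and 3 in the inputs, a scaled ratio of 3.83 (exact conditional 95% interval 1.31 to 15.2). Mmp17, an MMP held at the surface by a lipid anchor, had 10 and 8 reads in the NONO IP and 2 and 0 in the inputs, a ratio of 5.99 (1.43 to 53.3). Mmp19, a secreted MMP, went the other way, with 1 and 0 reads in the NONO IP and 8 and 16 in the inputs. That is 36.0-fold fewer scaled reads in the NONO IP, with an interval of 5.88 to 1482.

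In the edgeR fit with no count filter, over all 13731 genes, these 3 passed as well. Mmp16 was higher (log2 fold change 2.10, adjusted p = 0.0288), Mmp17 was higher (2.67, adjusted p = 0.0218) and Mmp19 was lower (−4.61, adjusted p = 5e-05). In that fit 8.59% of all genes were called higher and 4.73% lower. Together Mmp16 and Mmp17 held 8.88% and 11.6% of all Mmp reads in the NONO IP libraries and 1.51% and 1.55% in the inputs. The input shares rest on 3 reads per input library. These genes were paired after their values were seen, so the shares restate the same counts and add no support. Mmp23, a membrane-anchored MMP, had 8 and 6 reads in the NONO IP and 9 and 10 in the inputs, and Mmp28, a secreted one, had 2 and 3 against 5 and 2; the intervals of both include a ratio of 1, and Mmp23 was called lower on the log2(RPKM + 1) scale. The other 4 Mmp genes had fewer than 10 reads each.

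**Figure D3:**
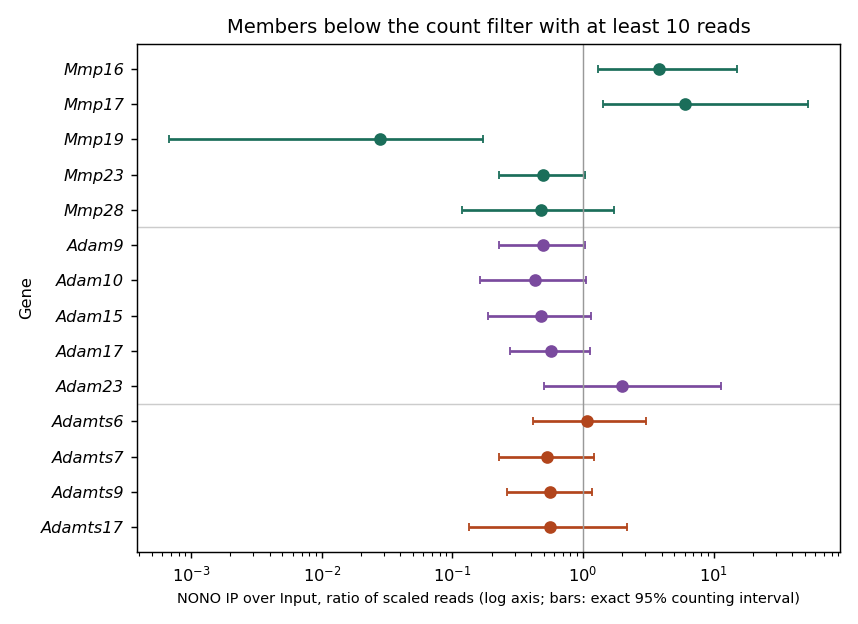
Ratio of scaled reads, NONO IP over Input, for the 14 members below the count filter with at least 10 reads, on a log axis with exact 95% counting intervals. Mmp16 and Mmp17 lie wholly above 1, at 3.83 and 5.99, and Mmp19 lies wholly below 1; the other 11 intervals include 1.

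The ADAM family held the member that was higher. Adam33, on chromosome 3, encodes a transmembrane metalloprotease of mesenchymal cells such as fibroblasts and smooth muscle. It had 79 and 67 reads in the NONO IP libraries and 24 and 24 in the inputs, or 253 ± 19.9 against 125 ± 2.38 CPM. Both NONO IP libraries lay far above both inputs (log2 fold change 1.01, SE 0.23, adjusted p = 0.00123). Leaving out any single library gave between 0.96 and 1.15, still called. On the RPKM scales Adam33 stood at 0.31 and 0.35 with pseudocounts of 1 and 0.1 and was not called (limma adjusted p = 0.339 and 0.289), which is 0.92 and 1.17 above the median of all genes there; 5.19% and 4.59% of all genes were called higher on these scales. It made up 44.6% and 43.2% of all Adam reads in the NONO IP (exact 95% intervals 37.2% to 52.3% and 35.3% to 51.4%), against 20.7% and 19.0% in the inputs (13.7% to 29.2% and 12.6% to 27.0%).

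Adam12 moved opposite to Adam33. Adam12, meltrin alpha, takes part in muscle cell fusion and is known as a marker of activated fibroblasts. It had 19 and 17 reads in the NONO IP and 25 and 42 in the inputs, or 62.5 ± 2.55 against 176 ± 66.1 CPM. The inputs differ widely, yet both lie above both NONO IP libraries (log2 fold change −1.48, SE 0.32, adjusted p = 0.000828). Adam19, meltrin beta, a protease that can shed neuregulin, had 45 and 45 reads in the NONO IP and 27 and 24 in the inputs. At 157 ± 5.93 against 133 ± 8.55 CPM, without overlap, it did not pass (0.23, SE 0.25, adjusted p = 0.451). With library totals it was called higher, at 0.69 (adjusted p = 0.0259), on a scale where the median of all genes lies at 0.48 and 41.7% of genes were called higher, and on the RPKM scales its sign turned.

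The widely expressed sheddases were all below the count filter. Adam10 and Adam17 release Notch and its ligands, growth factors and tumour necrosis factor from the cell surface. Adam10 had 5 and 4 reads in the NONO IP and 6 and 8 in the inputs, and Adam17 had 10 and 7 against 12 and 8. Adam9, a related sheddase, had 7 and 7 against 8 and 11, and Adam15 had 6 and 4 against 9 and 5. After scaling, the NONO IP libraries lay below the inputs for each of the 4, with ratios between 0.428 (Adam10) and 0.566 (Adam17), and each counting interval includes 1. Adam23, an ADAM without protease activity that serves in cell adhesion, had 6 and 3 reads in the NONO IP and 2 and 1 in the inputs (ratio 1.998, interval 0.499 to 11.5). None of these 5 was called with no count filter. On the log2(RPKM + 1) scale, where 18.8% of all genes were called lower, Adam9 and Adam10 were called lower.

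The ADAMTS family carried the largest share of member reads and 4 of the 9 lower calls. All 7 tested ADAMTS genes had a log2 fold change below 0 with TMM scaling, though Adamts8 and Adamts14 turned with library totals. Adamts2, on chromosome 10, encodes the main procollagen N-proteinase, which removes the amino propeptides of fibrillar procollagens. It had 117 and 122 reads in the NONO IP and 180 and 187 in the inputs, or 416 ± 28.1 against 958 ± 44.1 CPM (log2 fold change −1.20, SE 0.13, adjusted p = 4.58e-07). Both NONO IP libraries lie far below both inputs. Adamts14, which does the same work, had 13 and 13 reads in the NONO IP and 8 and 12 in the inputs. Its groups overlap after scaling, at 45.2 ± 1.71 against 52.4 ± 15.8 CPM, and it did not pass (−0.21, SE 0.41, adjusted p = 0.699).

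Of the proteoglycan-cleaving enzymes, Adamts1 and Adamts5 were lower. Adamts1, which cleaves versican and aggrecan, had 76 and 76 reads in the NONO IP and 149 and 131 in the inputs. That is 264 ± 10.02 against 730 ± 52.6 CPM (log2 fold change −1.47, SE 0.15, adjusted p = 2.42e-07). The NONO IP libraries lie close together, well below both inputs. Adamts5, a main aggrecanase and the neighbour of Adamts1 on chromosome 11, had 15 and 13 reads in the NONO IP and 17 and 20 in the inputs. At 48.6 ± 3.07 against 96.7 ± 12.9 CPM it passed (−0.98, SE 0.36, adjusted p = 0.0261). That call ended without NONO IP replicate 1 (adjusted p = 0.0896), without NONO IP replicate 2 (0.106), without Input replicate 2 (0.104), with library totals (0.221), with the length offset (0.0634) and with the DESeq2 Wald test (0.218).

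The other proteoglycan-cleaving members were not shown to change. Adamts8 had 27 and 21 reads in the NONO IP and 16 and 22 in the inputs, with overlapping groups (83.2 ± 11.6 against 99.4 ± 24.0 CPM, log2 fold change −0.25, SE 0.32, adjusted p = 0.526). Its sign turned with library totals (0.21) and was near 0 with the length offset. Adamts9, below the filter, had 5 and 10 reads in the NONO IP and 7 and 11 in the inputs.

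Adamts12 was lower too, and its relative Adamts7 had few reads. Both can cleave the cartilage oligomeric matrix protein. Adamts12 had 43 and 47 reads in the NONO IP and 70 and 82 in the inputs, or 157 ± 15.8 against 397 ± 51.8 CPM, with no overlap (log2 fold change −1.34, SE 0.20, adjusted p = 2.13e-05). Adamts7 had 6 and 6 reads in the NONO IP and 6 and 9 in the inputs (ratio 0.533, interval 0.228 to 1.22). Adamts10, which binds fibrillin, had 8 and 21 reads in the NONO IP and 21 and 14 in the inputs. The groups overlap (51.1 ± 33.9 against 91.1 ± 24.1 CPM) and it did not pass (−0.85, SE 0.43, adjusted p = 0.0999). A single library decides this: without NONO IP replicate 2 the value was −1.68 (adjusted p = 0.00647), without NONO IP replicate 1 it was −0.22 (adjusted p = 0.696), and without Input replicate 2 it was −1.15 (adjusted p = 0.0215). Adamts6 had 11 and 2 reads in the NONO IP and 3 and 5 in the inputs, and Adamts17 had 2 and 3 against 5 and 1. The other 5 Adamts genes had fewer than 10 reads each.

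The ADAMTS-like genes were split. Adamtsl2, whose protein binds fibrillin and latent TGF-beta binding protein, had 14 and 10 reads in the NONO IP and 20 and 22 in the inputs. At 41.6 ± 8.26 against 110 ± 9.47 CPM, without overlap, it was lower (log2 fold change −1.38, SE 0.36, adjusted p = 0.0035), though not by the DESeq2 Wald test (adjusted p = 0.0719). Adamtsl3 had 20 and 14 reads in the NONO IP and 28 and 18 in the inputs and was lower (58.9 ± 12.5 against 120 ± 34.6 CPM, −1.02, SE 0.34, adjusted p = 0.0169). The call of Adamtsl3 ended without Input replicate 1 (−0.72, adjusted p = 0.182), without NONO IP replicate 2 (−0.76, adjusted p = 0.104), with library totals (−0.56, adjusted p = 0.171) and by the DESeq2 Wald test (adjusted p = 0.165).

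Adamtsl4 and Adamtsl5 were not called. Adamtsl4, linked to fibrillin microfibrils of the eye, had 22 and 30 reads in the NONO IP and 17 and 16 in the inputs (90.8 ± 23.1 against 86.1 ± 2.05 CPM, 0.07, SE 0.33, adjusted p = 0.868). The groups overlap. Adamtsl5 had 20 and 14 reads in the NONO IP and 4 and 10 in the inputs (58.9 ± 12.5 against 36.8 ± 22.8 CPM, 0.69, SE 0.46, adjusted p = 0.216). Its groups overlap as well, and with library totals it was called higher (1.14, adjusted p = 0.0396). A single library moves this value: it was 0.13 without Input replicate 1 and 1.44 without Input replicate 2 (adjusted p = 0.868 and 0.0735).

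The 3 inhibitor genes differed widely in their values. Timp1, on chromosome X, encodes a secreted inhibitor that is induced in scarring tissue. It had 2 and 2 reads in the NONO IP and 11 and 10 in the inputs, or 6.96 ± 0.264 against 54.8 ± 2.65 CPM. Having few NONO IP reads, Timp1 passed the count filter through its inputs, where it is high. Its log2 fold change was −2.89 (SE 0.55, adjusted p = 0.000254), the lowest of the tested members, which do not include Mmp19. In scaled reads the NONO IP had 7.88-fold fewer (exact conditional 95% interval 2.66 to 31.6). With the length offset the value was −1.65 (adjusted p = 0.0334); Timp1 has the shortest length behind its RPKM values of all 47 members. Adding the replicate block to the length offset ended the call (−1.65, adjusted p = 0.0632), as did leaving out Input replicate 2 (−3.00, adjusted p = 0.0999); without Input replicate 1 the gene fell below the filter.

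Timp2 and Timp3 had many more reads and were not called. Timp2, the inhibitor that also takes part in proMMP2 activation, had 87 and 98 reads in the NONO IP and 72 and 75 in the inputs. On the scaled level that is 322 ± 39.3 against 384 ± 18.4 CPM, without overlap (−0.25, SE 0.17, adjusted p = 0.207), and the sign turned with library totals (0.21). On the RPKM scale with a pseudocount of 1 it was called lower, at −0.89 (adjusted p = 0.0377). Timp3, which stays bound to the matrix and also inhibits ADAM17, had 52 and 58 reads in the NONO IP and 40 and 27 in the inputs. Its groups overlap (192 ± 22.01 against 174 ± 44.7 CPM, 0.13, SE 0.24, adjusted p = 0.673); it was called higher with library totals (0.59, adjusted p = 0.0436), and the sign turned on the RPKM scales.

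Within the inhibitor family Timp1 held a smaller share of reads in both NONO IP libraries than in both inputs. Timp1 made up 1.42% and 1.27% of Timp reads in the NONO IP libraries, with exact 95% intervals of 0.172% to 5.03% and 0.154% to 4.50%. In the inputs it made up 8.94% and 8.93%, with intervals of 4.55% to 15.4% and 4.36% to 15.8%. The interval of NONO IP replicate 2 lies just below that of Input replicate 1, and the other NONO IP and Input intervals overlap. The 2 libraries of each group are close to each other. These shares restate the few Timp1 reads and add no support to its call. As to the balance of inhibitor and MMP reads, Timp genes held 39.7% and 45.4% of Timp and Mmp reads together in the NONO IP, and 38.2% and 36.6% in the inputs. Both NONO IP shares lie above both input shares, while the interval of NONO IP replicate 2 (40.1% to 50.8%) overlaps those of both inputs.

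Some members share their place in the genome with other genes, and the strand setting of the count is not given in the sources used here. In the RefSeq table of GRCr8, 23 of the 47 members overlap at least 1 other gene. Timp1 lies inside Syn1 and Timp3 inside Syn3, both synapsin genes; Syn1 had 2 and 0 reads in the NONO IP and 1 and 0 in the inputs. Cep295nl lies inside Timp2, and its counts stood out. Cep295nl had 103 and 84 reads in the NONO IP and 5 and 4 in the inputs, or 324 ± 34.4 against 23.5 ± 3.25 CPM (log2 fold change 3.76, SE 0.33, adjusted p = 3.8e-08), and passed the count filter through its NONO IP reads. Under the alternatives it was tested in it lay between 2.42 and 4.22 and was called each time. So the nested gene was higher in the NONO IP while the reads given to Timp2 itself did not pass; from which transcript the Cep295nl reads came was not tested. Cep295nl was singled out after its values were seen.

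Gene length differed widely between members. In the length behind the RPKM values, known up to a constant, Adam33 ranked 5 of 47 and had 4.13 units against a median of 1.57 over the 47. Mmp16 had 4.50 units and Mmp17 had 3.19, while Timp1 had 0.355 and Mmp19 had 1.00. The lower members Adamts12 and Adam12 had 4.01 and 3.10 units. Across the 33 members with at least 10 reads, log2 read ratio and log2 length correlated at a Spearman rho of 0.32. Across the 19 tested members the fold change did so at 0.12, and across all 2920 genes tested at 0.26. The Pearson correlations were 0.44, 0.40 and 0.09 in that order. These are descriptions across genes of the same 4 libraries, which are not independent replicates. With an offset for length, 8 of the 9 lower members, all but Adamts5, stayed called. Adam33 stayed higher, at 0.71 in place of 1.01 (edgeR adjusted p = 0.0181). Timp1 moved from −2.89 to −1.65 and Adamts12 from −1.34 to −1.63. The part of gene length in the members' changes was not tested.

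Summed over all members, the families differed in their shares between the groups, and few genes held much of some families. Adamts genes made up 34.7% and 37.0% of member reads in the NONO IP libraries and 48.8% and 49.9% in the inputs. Their exact 95% intervals were 31.6% to 37.8% and 33.8% to 40.2% in the NONO IP, against 45.7% to 52.0% and 46.7% to 53.1% in the inputs, without overlap. Adamts1 and Adamts2 together held 193 of 324 and 198 of 337 Adamts reads in the NONO IP, and 329 of 486 and 318 of 497 in the inputs. Adam genes made up 18.9% and 17.0% in the NONO IP and 11.7% and 12.7% in the inputs. Adam33 alone held 79 of 177 and 67 of 155 Adam reads in the NONO IP, and 24 of 116 and 24 of 126 in the inputs. The family shares therefore do not speak for each gene. Timp genes made up 15.1% and 17.3% in the NONO IP and 12.4% and 11.2% in the inputs. Mmp genes held 214 and 190 of the 935 and 911 member reads in the NONO IP libraries and 199 and 194 of the 995 and 996 in the inputs. Adamtsl genes held 8.45% and 7.79% in the NONO IP and 7.14% and 6.73% in the inputs. With 2 libraries per group an exact two-sided permutation test cannot go below p = 0.333, so none is given for these shares.

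In scaled level, the Adamts sum was 1150 ± 75.5 CPM in the NONO IP and 2567 ± 89.4 CPM in the inputs, a ratio of 0.448. The ratio was 0.605 as a share of all gene counts and 0.289 in summed RPKM, so it stayed below 1 on all 3 scales. The Mmp sum was 702 ± 32.4 against 1026 ± 1.04 CPM, a ratio of 0.684 (0.923 as a share of all gene counts). The Adam sum (ratio 0.912) and the Timp sum (0.850) stood above 1 as shares of all gene counts, at 1.23 and 1.15, and below 1 in summed RPKM, at 0.495 and 0.432. A direction for these last families therefore rests on the scaling. Within the Mmp family the secreted members summed to 300 ± 45.2 CPM in the NONO IP, against 613 ± 21.6 CPM in the inputs, while the membrane-bound ones had 402 ± 12.8 against 413 ± 22.6 CPM. The ratio of the membrane-bound sum was 0.974 on that scale, 1.31 as a share of all gene counts and 0.537 in summed RPKM, so it too has no direction apart from the scaling. That of the secreted sum was 0.489, 0.660 and 0.309 on these scales.

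**Figure D4:**
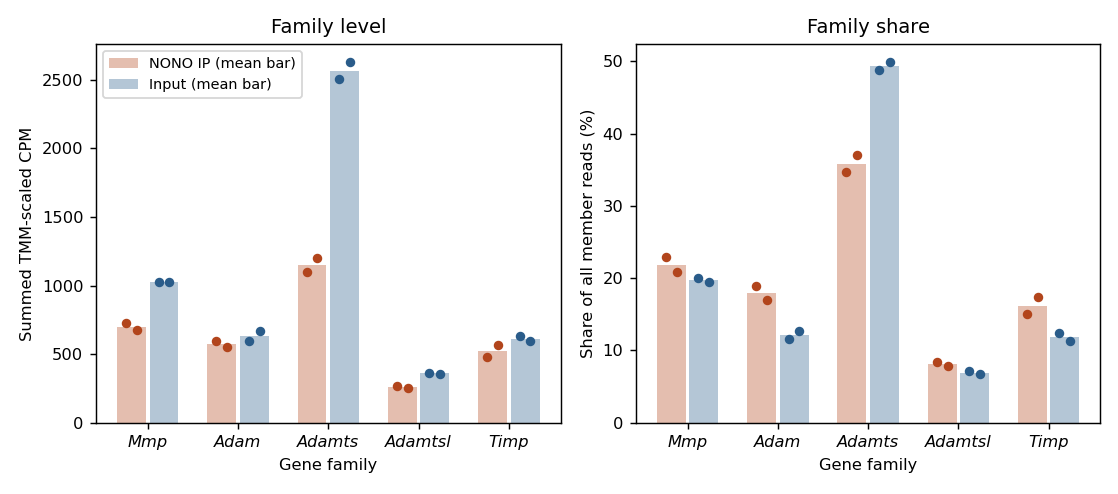
Left, summed TMM-scaled CPM of each family; right, the share of all member reads. Points are single libraries and bars their means, NONO IP left of Input. The Adamts bars are the ones farthest apart, at 1150 against 2567 CPM and at about 36% against 49% of member reads.

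How far each member's value moved with the scaling is drawn for 4 of the fits. Adamts1, Adamts2, Adamts12, Adam12, Mmp2, Adamtsl2 and Timp1 were below 0 and called with TMM scaling, library totals, the length offset and both RPKM pseudocounts. Adamts5 and Adamtsl3 were below 0 in each but not called in all. Adamts10 was below 0 in each and called in none of them. Adam33 was above 0 in each of these scalings and was not called on the RPKM scales. Adamtsl5 was above 0 in each too and was called only with library totals. Mmp14, Timp2, Timp3, Adam19, Adamts8, Adamts14 and Adamtsl4 changed sign in at least 1 of the scalings, so no direction is given for these 7. The library total behind the RPKM values was 2.45 and 2.22 times that of Input replicate 1 in the NONO IP libraries. In Input replicate 2 it was 0.965 times that. The RPKM scale therefore lowers all genes of the NONO IP by a shared amount, with a median of −0.61 at a pseudocount of 1.

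**Figure D5:**
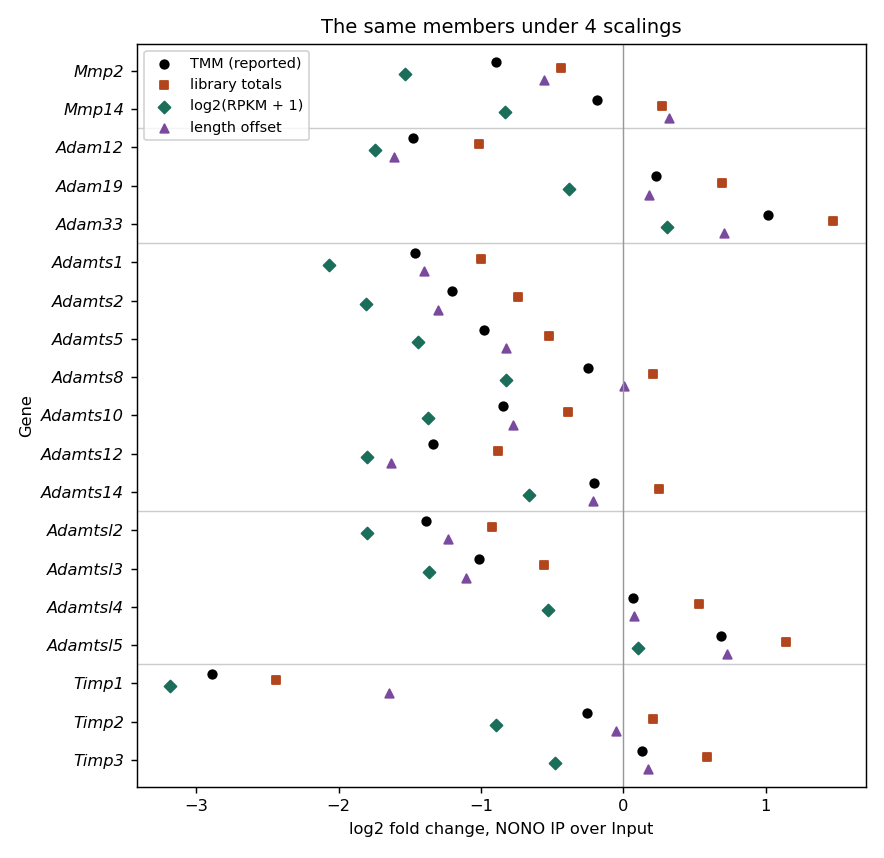
Log2 fold change of NONO IP over Input for the tested members under TMM scaling, library totals, log2(RPKM + 1) and an offset for gene length. Library totals move every member to the right and the RPKM scale moves every member to the left. Adam33 and Adamtsl5 stay right of 0. Adamts1, Adamts2, Adamts5, Adamts10, Adamts12, Adam12, Adamtsl2, Adamtsl3, Mmp2 and Timp1 stay left of it.

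The genes that activate, assist or oppose these proteases were read from 7 further lists, in the same fit. The counts of each list stand beside the same background of 26.9% lower and 29.8% higher among all genes tested. The lists were not matched to that background in input abundance, and the part of abundance in their calls was not tested. In the plasminogen system, which activates several MMPs, 3 of 5 tested genes were lower and none was higher (median log2 fold change −0.89). Among them were Lrp1, an endocytic receptor for proteases and inhibitors (−1.86, SE 0.10), and Plat, tissue plasminogen activator (−0.89, SE 0.34). Plat had 18 and 15 reads in the NONO IP and 18 and 23 in the inputs, or 57.3 ± 5.21 against 107 ± 20.5 CPM (adjusted p = 0.032).

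Of 6 tested genes of propeptide and proprotein processing, 3 were lower and none higher (median −0.88). Pcolce, which enhances removal of the procollagen C-propeptide, changed by −1.08 (SE 0.16), Furin, the convertase that activates many ADAMs and membrane-type MMPs, by −0.85 (SE 0.17), and Mbtps1, the site-1 protease of the Golgi, by −1.12 (SE 0.30). Bmp1, the procollagen C-proteinase, stood at −0.61 (SE 0.27, adjusted p = 0.0628) and did not pass. Of 11 other matrix-degrading enzymes, 9 were lower and 1 was higher (median −1.10). The lysosomal proteases Ctsb (−1.67, SE 0.25) and Lgmn (−2.86, SE 0.44) were lower. So were the secreted serine protease Htra1 (−1.10, SE 0.18) and Cemip, which degrades hyaluronan (−1.10, SE 0.12). Lgmn had 4 and 4 reads in the NONO IP and 19 and 21 in the inputs and passed the count filter through its inputs. Cemip2, a relative of Cemip that was singled out after its value was seen, was higher, at 0.91 (SE 0.38, edgeR adjusted p = 0.0498).

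Only 2 of 16 other inhibitor genes could be tested. Cst3, cystatin C, a cysteine protease inhibitor, was lower (log2 fold change −2.16, SE 0.28, edgeR adjusted p = 5.35e-06). It had 55.5 ± 7.73 CPM in the NONO IP and 251 ± 41.7 CPM in the inputs. Reck, a membrane-anchored inhibitor of MMPs, had 20 and 12 reads in the NONO IP and 15 and 12 in the inputs and did not pass (−0.34, SE 0.39, adjusted p = 0.474).

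Of 5 tested partners of ADAMs, 1 was higher and none lower (median 0.10), a share of higher calls no greater than the 29.8% of all genes. Rhbdf2, an inactive rhomboid protein that brings ADAM17 to the cell surface, had 24 and 14 reads in the NONO IP and 3 and 3 in the inputs (log2 fold change 2.04, SE 0.53, adjusted p = 0.0033). Its input reads lie below the 23 that any tested gene has in all, so it passed the filter through its NONO IP reads. Rhbdf1, its relative, stood at −0.80 (SE 0.39, adjusted p = 0.0880).

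Of 19 tested genes whose proteins ADAMs shed, 10 were lower and 2 higher (median −0.63), against 26.9% lower and 29.8% higher over all genes. Lrp1, which is also in the plasminogen list, the Notch ligand Jag1 (−1.54, SE 0.18), the receptor Notch2 (−1.25, SE 0.15) and the adhesion molecule Ncam1 (−1.58, SE 0.20) were lower. The 2 higher ones, singled out after their values were seen, were the growth factor gene Nrg1 (1.12, SE 0.19, adjusted p = 7.87e-05) and the receptor gene Il6r (2.22, SE 0.66, adjusted p = 0.00899). Nrg1 had 112 and 110 reads in the NONO IP and 35 and 33 in the inputs, and Il6r had 17 and 12 against 4 and 0, so that Il6r passed the count filter through its NONO IP reads.

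Of the substrates and partners of ADAMTS proteins, 14 of 16 tested were lower and 1, Bgn, was higher (median −1.31). Among all genes tested 26.9% were lower and 29.8% higher. Fn1 (−1.82, SE 0.08), Thbs1 (−1.33, SE 0.07), Fbn1 (−1.38, SE 0.09) and Col1a2 (−0.75, SE 0.06) had the smallest adjusted p-values of the list. They were abundant in the inputs, at 19554, 14695, 3169 and 26255 CPM, where the median of all genes tested was 73.2 CPM. The list also holds less abundant lower genes, such as Fbn2 at 91.5 CPM. Among the proteoglycans that Adamts1 and Adamts5 cleave, versican and aggrecan were lower, both singled out after their values were seen. Vcan had 15 and 9 reads in the NONO IP and 38 and 23 in the inputs (−1.92, SE 0.35, adjusted p = 0.000202), and Acan had 32 and 23 against 62 and 49 (−1.59, SE 0.25, adjusted p = 3.66e-05).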

How the data were processed

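The authors deposited raw gene counts and RPKM values scaled by gene length and library total, per the file headers. HISAT2, HOMER and mRatBN7.2 stand in the submitters' processing notes without a role; the counting program and its strand setting are not given there. Per the labels' protocols, polyadenylated RNA was captured and a stranded kit was used. NONO IP was tested against Input with edgeR 4.0.16 (R 4.3.3): TMM scaling, filterByExpr, quasi-likelihood test, Benjamini-Hochberg adjustment over all 2920 genes tested, threshold 0.05; TMM factors were 1.17 and 1.18 for the NONO IP and 0.844 and 0.861 for the inputs. The SE is the log2 fold change over the root of F. Ratios of low counts use exact conditional 95% intervals. Every tested member is named, and members below the filter from 10 reads; from each related list up to 4 called genes with the smallest adjusted p, of which 1 is not reported here. Members and lists were chosen with earlier results of these data known. Relative length came from counts over RPKM. The fit was checked on simulated data. Alternatives were DESeq2 (1.42.0), limma (3.58.1) on RPKM, other scalings and filters, a length offset (loess span 0.5), the replicate block and leaving out libraries. No sequences are shown.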

Additional observations from a re-analysis of the deposited data

How the results depend on the processing

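Of the comparisons of single members with their alternatives, 206 kept their direction and side of the threshold, 19 lost the call, 9 gained one and 20 changed sign; the cause was not tested. Calls over all genes numbered 1657 with edgeR, 876 by the DESeq2 Wald test (453 higher, 423 lower) and 501 with at least 50 counts in 2 libraries (600 genes tested). The higher share of calls was 52.6%, and 73.3% with library totals, 64.5% with no count filter, and 21.6% and 23.3% on the RPKM scales with pseudocounts of 1 and 0.1. Members called higher numbered 4 with library totals, 3 with no count filter and 0 on both RPKM scales. Over all genes, 41.7% were called higher with library totals, 8.59% with no count filter, and 5.19% and 4.59% on the RPKM scales. With at least 50 counts, 4 of the 8 members tested were called lower, beside 247 of the 600 genes tested. With a pseudocount of 1, 15 of the 32 members tested were called lower, beside 18.8% of all genes. The median of the tested members was −0.39 with library totals, −1.19 and −1.51 on the RPKM scales, −0.56 with the length offset and −0.56 with length offset and replicate block together, where all genes had medians of 0.48, −0.61, −0.82, 0.11 and 0.11. Leaving out 1 library leaves a group with a single library. It gave medians of the tested members between −0.91 and −0.52, with 23 to 25 members tested in place of 19. Signs turned with library totals for Adamts14 (0.25), Adamts8 (0.21), Mmp14 (0.27) and Timp2 (0.21). They turned on the RPKM scales with pseudocounts of 1 and 0.1 for Adam19 (−0.38 and −0.42), Adamtsl4 (−0.53 and −0.60) and Timp3 (−0.48 and −0.50). With no count filter Adamts14 (0.0105) and Mmp14 (0.0305) turned, with the length offset Adamts8 (0.0027) and Mmp14 (0.32), and with length offset and replicate block together Adamts8 (0.0039) and Mmp14 (0.32). Leaving out 1 library turned Adamts14 (between −0.52 and 0.0715), Adamtsl4 (between −0.15 and 0.37, among them −0.0141) and Timp3 (between −0.17 and 0.39). Same-numbered libraries share only a number (correlation of their deviations 0.05); the replicate block gave 1676 calls and the same 1 higher and 9 lower members. Counts of a few reads limit what can be seen of the 28 members below the filter.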
